A study of Mus musculus with 12 samples.

Results

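The 9 genes described here encode the corticosteroid receptors of the hippocampus and proteins that act before or after them. They are Nr3c1 and Nr3c2, which encode the receptors, Fkbp5, Sgk1, Tsc22d3, Cdkn1a and Zbtb16, which corticosteroids are known to raise in many tissues, the enzyme gene Hsd11b1, and Crhr1, which encodes a receptor of corticotropin-releasing hormone. They were chosen by name and matched by Entrez ID, which found 9 of 9 among the 27179 gene IDs counted. The RNA came from the hippocampus of 12 mice aged 3 months, of which 3 females and 3 males were WT and 3 females and 3 males were Nell-1+/6R. A Nell-1+/6R mouse carries, in every cell, 1 copy of an ENU-induced loss-of-function allele of Nell1 (6R) beside 1 normal copy. Mice with the allele on both copies die as newborns, so the model is one of reduced dose. No hormone, drug or stressor set these groups apart in the labels, and the sources used here do not give the hour of collection or the blood corticosterone of a mouse.

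Corticosterone, the main glucocorticoid of the mouse, crosses the cell membrane and binds 2 related receptors in the cytoplasm. The mineralocorticoid receptor, encoded by Nr3c2, binds it with high affinity, and the glucocorticoid receptor, encoded by Nr3c1, binds it with lower affinity and so responds more to the daily peak and to stress. The hippocampus is known for carrying both. A bound receptor leaves its chaperones, enters the nucleus and can sit as a dimer on an inverted repeat of DNA, the glucocorticoid response element, from which it raises or lowers nearby genes. Hsd11b1 makes active hormone from an inactive precursor inside the cell, and Crhr1 works higher up in the stress axis, where its ligand starts the release of the hormone.

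Promoter sequences of the whole genome show how rare the palindromic form of that element is near a transcription start. RefSeq promoter sequences of GRCm38.p6, each 300 bases from 250 before to 50 after a transcription start, were found for 7 of the 9 genes, with 15 starts between them. Nr3c1 and Zbtb16 had none. The full palindrome, AGAACA and TGTTCT with any 3 bases between them, reads the same on both strands. It lay in 3 of 32851 promoters of the genome (0.00913%), and 1 of those 3 belonged to Sgk1, with the others at Acnat2 and Gm35041. With the outermost base and 1 more of each arm left free, it lay in 0.475% of all promoters and again in 1 of the 15. One arm of it, AGAACA on either strand, lay in 18.97% of all promoters and in 4 of the 15, which belonged to Sgk1 and Tsc22d3. The 9 central letters, ACANNNTGT, were in 6.85% of all promoters and in 2 of the 15, both of Sgk1, and the full palindrome contains them. The promoter of Sgk1 with the full element, at chr10:21993640-21993939 on the plus strand, and the promoter of Tsc22d3 with 1 arm, at chrX:140600473-140600772 on the minus strand, are printed because the levels of these targets had the highest rank correlation of all pairs among the 9 genes. Capitals mark the match, which begins at -189 in Sgk1 and at -185 in Tsc22d3, where -1 is the base just before the start of transcription.
Sgk1: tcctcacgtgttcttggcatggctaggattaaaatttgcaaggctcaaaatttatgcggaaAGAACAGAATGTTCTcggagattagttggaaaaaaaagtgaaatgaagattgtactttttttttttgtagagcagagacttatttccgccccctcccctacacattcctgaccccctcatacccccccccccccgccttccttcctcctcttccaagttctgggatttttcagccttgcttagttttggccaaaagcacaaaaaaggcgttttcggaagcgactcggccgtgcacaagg
Tsc22d3: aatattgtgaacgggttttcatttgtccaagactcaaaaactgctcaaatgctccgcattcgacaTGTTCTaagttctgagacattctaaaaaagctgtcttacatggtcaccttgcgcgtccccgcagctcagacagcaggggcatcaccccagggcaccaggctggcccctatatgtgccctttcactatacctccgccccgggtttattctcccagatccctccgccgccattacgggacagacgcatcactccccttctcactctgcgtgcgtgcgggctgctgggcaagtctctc
A match says only that these letters are present, and promoters without one say nothing about binding elsewhere in the gene.

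The counts of a mouse summed to between 10834905 and 16016317, and no pair of replicates agreed within sampling noise. Nell1 itself stood at 36.5 ± 4.55 CPM (counts per 1000000 counts, scaled between mice; SD, n = 6) in the WT mice and at 19.1 ± 1.77 (SD, n = 6) in the Nell-1+/6R mice, with no overlap. All 6 genes of the hippocampal check were present in every library. The 7 choroid plexus genes summed to between 782 and 5110 CPM in 4 mice (Nell-1+/6R female 1, WT male 3, WT female 1 and WT female 2) and to between 42.1 and 130.6 CPM in the other 8, so results were also computed without those 4. In a bulk sample, fewer cells of a type and less RNA per cell cannot be told apart.

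All 9 genes were well within reach of the sequencing. The lowest count of any of them was 56, for Cdkn1a in Nell-1+/6R male 3, and the highest was 2503, for Sgk1 in Nell-1+/6R male 1. Per kilobase of exon, Sgk1 stood highest with 28.0 ± 7.17 CPM (SD, n = 12), followed by Zbtb16 with 23.2 ± 3.01, Tsc22d3 with 19.6 ± 3.68, Nr3c2 with 11.8 ± 3.98, Fkbp5 with 8.32 ± 0.708, Nr3c1 with 8.02 ± 1.13, Crhr1 with 6.81 ± 0.786, Hsd11b1 with 5.91 ± 0.915 and Cdkn1a with 3.15 ± 1.04. Neighbours in this order overlapped within 1 SD, apart from Tsc22d3 and Nr3c2 and apart from Hsd11b1 and Cdkn1a.

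**Figure D1:**
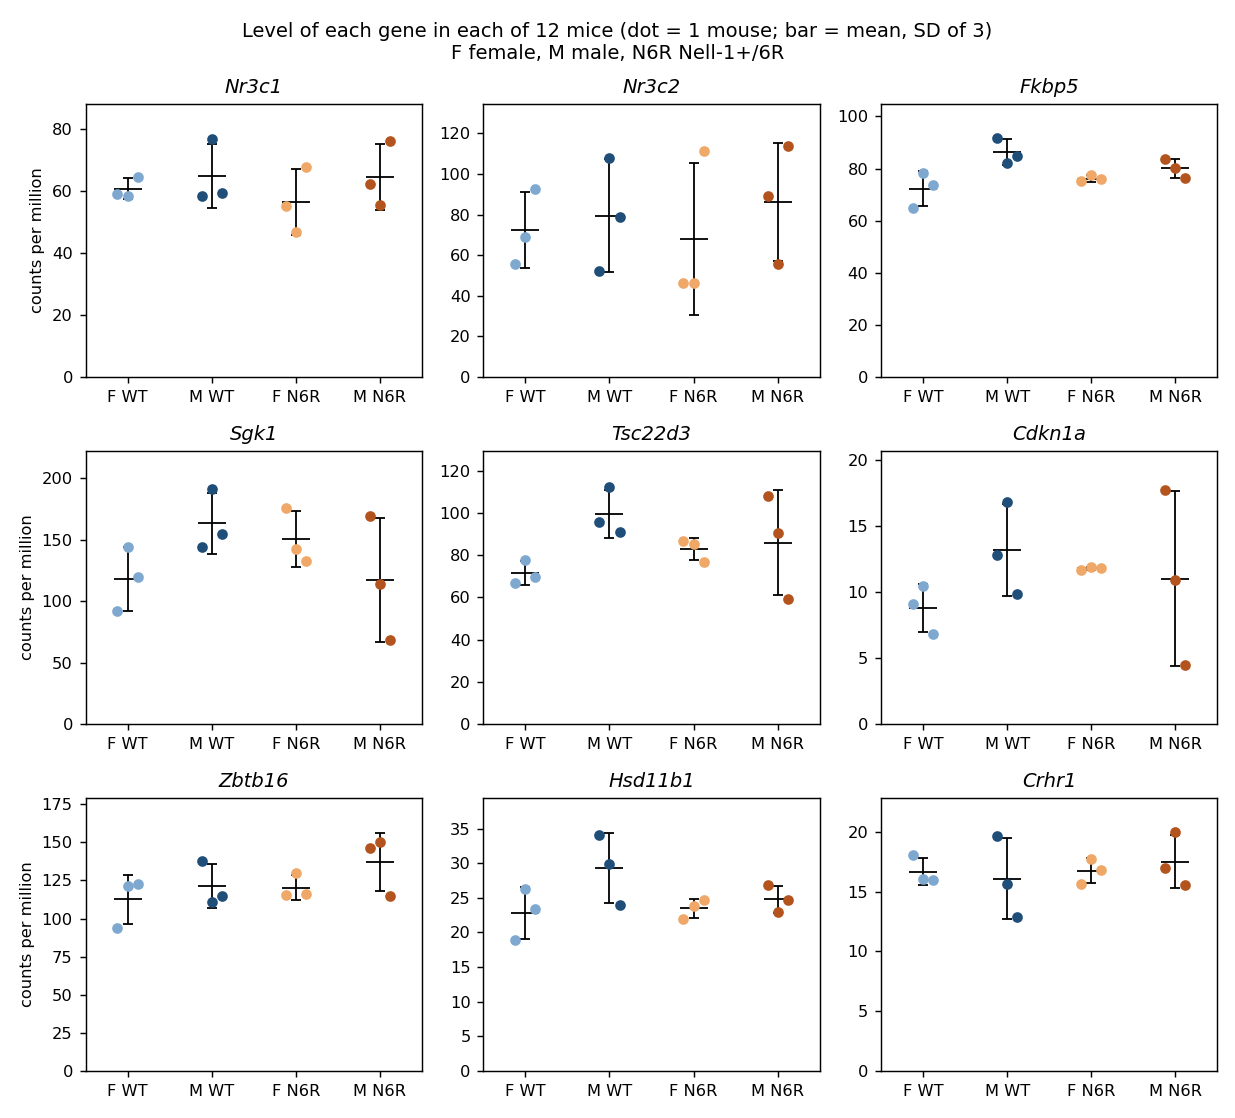
Level of each of the 9 genes in CPM (vertical axis, from 0) in the 3 mice of each group, with the mean and SD. WT and Nell-1+/6R mice overlap in every panel; in males of the Nell-1+/6R group Sgk1 runs from 68.6 to 169.3 CPM and Nr3c2 from 55.5 to 113.7.

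Neither receptor gene passed the test between genotypes, and the mineralocorticoid receptor gene varied widely from mouse to mouse. Nr3c2 (chr8:76898083-77245012, plus strand) stood at 55.9, 68.8 and 92.7 CPM in WT females, at 52.1, 107.7 and 78.7 in WT males, at 46.2, 46.5 and 111.1 in Nell-1+/6R females and at 89.3, 55.5 and 113.7 in Nell-1+/6R males. The ranges of the 4 groups overlapped, and the lowest and the highest mouse were both Nell-1+/6R. The log2 difference between genotypes, Nell-1+/6R minus WT, was 0.013 with an SE of 0.249, which is a fold of 1.01 with a 95% interval of 0.697 to 1.46 (edgeR's quasi-likelihood test with Benjamini-Hochberg adjustment, adjusted p = 1.00). The within-group SD of Nr3c2 was 0.55 on the log2 scale, above that of 98.5% of the 11562 genes with a mean of at least 5 CPM, whose median was 0.15.

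Nr3c1, on chromosome 18, ran over a narrower range. Its WT mice had a lowest level of 58.4, a median of 59.2 and a highest of 76.7 CPM, and its Nell-1+/6R mice a lowest of 46.6, a median of 58.7 and a highest of 76.1. The medians were close, and most of each range was shared. The fold was 0.962 with a 95% interval of 0.825 to 1.12 (log2 difference -0.056, SE 0.104; edgeR, adjusted p = 1.00).

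The balance of the receptors, which sets how a cell reads low and high hormone, was taken as counts of Nr3c2 for each count of Nr3c1. It ran from 0.841 in Nell-1+/6R female 1 to 1.64 in Nell-1+/6R female 3, both ends within 1 group, and the WT mice lay between 0.892 and 1.44. The genotypes differed by 0.027 on the log2 scale, from a mean of 0.23 ± 0.29 (SD, n = 6) in WT to 0.26 ± 0.39 (SD, n = 6) in Nell-1+/6R mice (exact two-sided permutation test over 924 splits, p = 0.903). Males stood 0.12 above females on that scale (exact two-sided permutation test, p = 0.554). The smallest p that these splits can give is 0.00216.

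None of the 5 genes that corticosteroids are known to raise passed the test between genotypes. Sgk1 (chr10:21882184-21999903), a kinase that acts on ion channels and transporters, stood at 91.8, 143.8 and 119.3 CPM in WT females, at 144.0, 191.6 and 154.8 in WT males, at 176.2, 142.8 and 132.7 in Nell-1+/6R females and at 169.3, 113.7 and 68.6 in Nell-1+/6R males. Its highest mouse was a WT male and its lowest a Nell-1+/6R male. The fold between genotypes was 0.956 with a 95% interval of 0.700 to 1.31 (log2 -0.064), and without the 4 mice rich in choroid plexus RNA the log2 difference was -0.27.

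Tsc22d3 (chrX:140539528-140600522), whose product GILZ carries part of the anti-inflammatory action of glucocorticoids, stood at 67.0, 77.7 and 69.4 CPM in WT females, at 95.5, 112.4 and 90.8 in WT males, at 86.6, 85.4 and 76.7 in Nell-1+/6R females and at 108.0, 90.4 and 59.2 in Nell-1+/6R males. The 3 WT males lay above all WT females, while Nell-1+/6R male 3 was the lowest mouse of all. The fold between genotypes was 1.00 with a 95% interval of 0.827 to 1.21.

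Cdkn1a (chr17:29090979-29100722), which encodes the cell cycle inhibitor p21 and is also a p53 target, was the lowest of the 9. It stood at 9.04, 10.4 and 6.82 CPM in WT females, at 12.8, 16.8 and 9.84 in WT males, at 11.7, 11.9 and 11.8 in Nell-1+/6R females and at 17.7, 10.9 and 4.43 in Nell-1+/6R males. The Nell-1+/6R females lay close together, whereas the Nell-1+/6R males held both the highest and the lowest mouse. Its fold of 1.06 had the widest interval of the 9, 0.721 to 1.57, and its within-group SD of 0.55 (log2) exceeded that of 98.5% of genes.

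Fkbp5 (chr17:28398753-28486149), a co-chaperone that lowers the hormone affinity of the glucocorticoid receptor and is itself raised by it, was the steadiest. It stood at 65.0, 78.3 and 73.8 CPM in WT females, at 91.9, 82.2 and 85.0 in WT males, at 75.1, 77.6 and 75.9 in Nell-1+/6R females and at 83.7, 80.1 and 76.4 in Nell-1+/6R males. WT females were lowest and WT males highest, with both Nell-1+/6R groups between their means. Its within-group SD of 0.087 (log2) was above that of only 13.6% of genes, and its fold between genotypes was 0.988 with a 95% interval of 0.903 to 1.08.

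Zbtb16 (chr9:48651797-48836225), which encodes the zinc finger transcription factor PLZF, had a lowest level of 93.7, a median of 117.9 and a highest of 137.9 CPM in WT mice. In Nell-1+/6R mice these were 114.9, 122.8 and 150.0 CPM. It had the smallest p of the 9 for genotype, with a fold of 1.10 and a 95% interval of 0.965 to 1.25 (edgeR, unadjusted p = 0.140, adjusted p = 1.00). Without Nell-1+/6R male 3 that unadjusted p was 0.0488, with a log2 difference of 0.18 (edgeR, adjusted p = 1.00).

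Hsd11b1 (chr1:193221640-193264045) and Crhr1 (chr11:104130463-104175523) stand at the hormone's supply side. Hsd11b1 had a lowest level of 18.9, a median of 25.2 and a highest of 34.0 CPM in WT mice and of 22.0, 24.2 and 26.9 in Nell-1+/6R mice, so the Nell-1+/6R range lay inside the WT range. Its fold was 0.933, with a 95% interval of 0.799 to 1.09 (log2 -0.099), and without the 4 mice rich in choroid plexus RNA the log2 difference was -0.22 (edgeR, unadjusted p = 0.0743). Crhr1 had a lowest level of 12.9, a median of 16.0 and a highest of 19.7 CPM in WT mice and of 15.6, 16.9 and 20.0 in Nell-1+/6R mice. Its fold was 1.05, with a 95% interval of 0.899 to 1.22.

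Counted together, 0 of the 9 genes passed the thresholds of the study for genotype, an unadjusted p under 0.05 with a fold change above 1.5, which 1.46% of the 17937 genes tested passed. At an unadjusted p under 0.05 alone, edgeR also called 0 of the 9, against 3.26% of all genes, and at an adjusted p under 0.05 it called 0, against 0.0390%. DESeq2 and limma-voom each called 0 as well. The median log2 difference was 0.0012 over the 9 and -0.00076 over all genes, with 5 above and 4 below 0. For 8 of the 9 the 95% interval lay inside a change of 1.5-fold either way, and that of Cdkn1a reached 1.57. No gene of the 9 separated WT from Nell-1+/6R mice without overlap, which 0.151% of genes did.

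**Figure D2:**
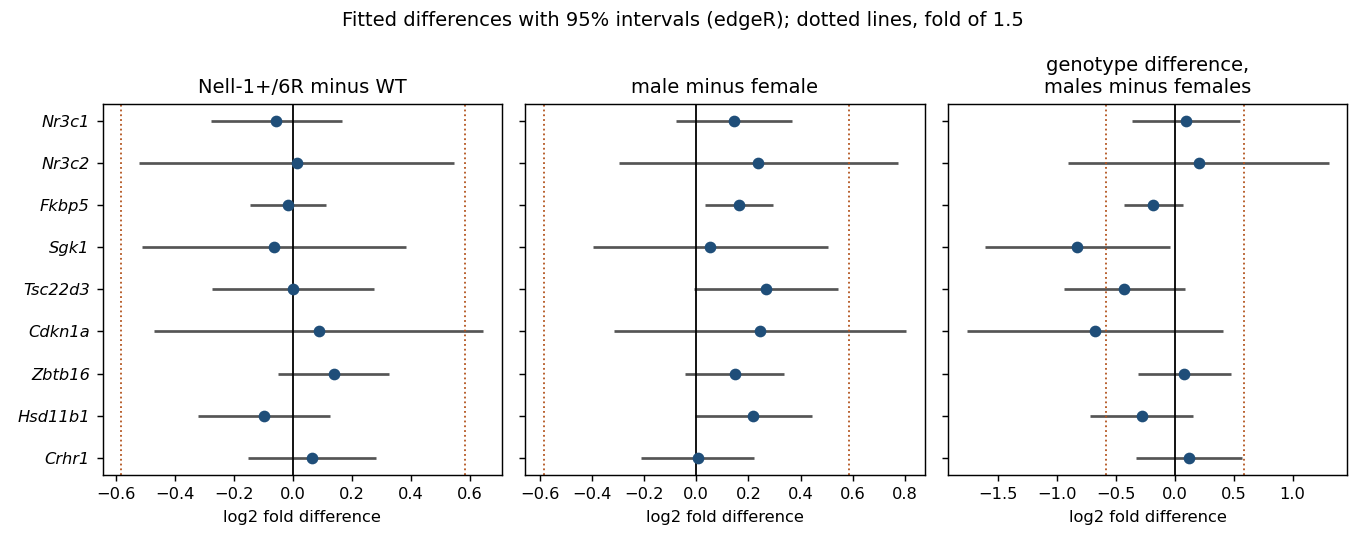
Fitted log2 differences of the 9 genes (points) with 95% intervals (lines) for genotype, for sex and for the interaction of both; dotted lines mark a fold of 1.5. All genotype intervals span 0, all sex values lie above 0, and Sgk1 has the interaction farthest below 0 at -0.83.

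Levels in males were above those in females for all 9 genes, but by small amounts. The median log2 difference, male minus female, was 0.16 over the 9 against -0.0035 over all genes. None of the 9 passed the thresholds for sex, which 1.35% of genes passed, and 1 of them, Fkbp5, had an unadjusted p under 0.05, against 4.72% of genes. At an adjusted p under 0.05 the count was 0, against 0.0335% of genes. Fkbp5 stood 1.12-fold higher in males, with a 95% interval of 1.02 to 1.23 (log2 0.16, SE 0.0605; edgeR, unadjusted p = 0.0172, adjusted p = 0.868). Without the 4 mice rich in choroid plexus RNA its log2 difference was 0.13 (edgeR, unadjusted p = 0.131, adjusted p = 1.00). Tsc22d3, which lies on the X chromosome, stood 1.20-fold higher (95% interval 0.994 to 1.46; edgeR, unadjusted p = 0.0570) and Hsd11b1 1.16-fold higher (95% interval 0.996 to 1.36; edgeR, unadjusted p = 0.0550). With DESeq2 the unadjusted p was 0.00966 for Fkbp5, 0.0465 for Tsc22d3 and 0.0497 for Hsd11b1, and 730 of all 17937 genes were under 0.05. These 3 genes were also under 0.05 in edgeR with no filter on low counts, as were 898 of all 21453 genes. Without Nell-1+/6R male 3 the log2 difference of Tsc22d3 was 0.38 (edgeR, unadjusted p = 0.000354, adjusted p = 0.703), and 4 of the 9 were then at an unadjusted p under 0.05, with Cdkn1a and Zbtb16 beside Fkbp5 and Tsc22d3, against 655 of all 17881 genes.

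Within the genotypes, the sexes were compared mouse by mouse. All 3 WT males lay above all 3 WT females in Fkbp5, Sgk1 and Tsc22d3, which is 3 of the 9 against 7.54% of all genes without overlap in that comparison. In Nell-1+/6R mice 0 of the 9 separated the sexes, against 8.85% of genes. Among females, the genotypes were fully apart in Cdkn1a, 1 of the 9 against 6.00% of genes, and among males they overlapped in all 9, against 10.4% of genes without overlap.

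The test of that contrast, the genotype by sex interaction, was past the thresholds for 1 of the 9 genes, Sgk1, against 2.16% of all genes. Sgk1 was 1.27-fold higher in Nell-1+/6R than in WT females (log2 0.35, SE 0.257) and 0.718-fold as high in Nell-1+/6R as in WT males (log2 -0.48, SE 0.258). The interaction was -0.83 on the log2 scale, SE 0.364 (edgeR, unadjusted p = 0.0408, adjusted p = 0.987), and no gene passed an adjusted p under 0.05 (0.00% of genes). DESeq2 gave -0.83 (unadjusted p = 0.0219) and limma-voom -0.92 (unadjusted p = 0.0247). With 1 mouse left out it lay between -1.19 and -0.56, and for 8 of the 12 mice the unadjusted p was then above 0.05. The value closest to 0 was that without Nell-1+/6R male 3 (-0.56; edgeR, unadjusted p = 0.0684), whereas without WT male 3 it was -0.87 (edgeR, unadjusted p = 0.0546). Without the 4 mice rich in choroid plexus RNA it was -0.69 (edgeR, unadjusted p = 0.218). Tsc22d3 at -0.43 (SE 0.237), Cdkn1a at -0.68 (SE 0.504), Hsd11b1 at -0.28 (SE 0.202) and Fkbp5 at -0.18 (SE 0.116) had the same sign and did not pass. Nr3c2 at 0.20 (SE 0.512), Crhr1 at 0.12 (SE 0.208), Nr3c1 at 0.094 (SE 0.214) and Zbtb16 at 0.081 (SE 0.182) lay above 0, and the median over the 9 was -0.18.

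Over the individual mice, after the mean of each group of 3 had been removed, the highest correlations joined some of the 9 genes in pairs, and none of them passed after adjustment. Of 36 pairs, 4 had an unadjusted p under 0.05 and 0 an adjusted one (exact permutation within groups over 1296 orders, whose smallest p is 0.000772). The highest r values joined Tsc22d3 with Cdkn1a and with Sgk1, Fkbp5 with Zbtb16, and Nr3c1 with Nr3c2, and the lowest was -0.55, between Nr3c1 and Zbtb16.

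**Figure D3:**
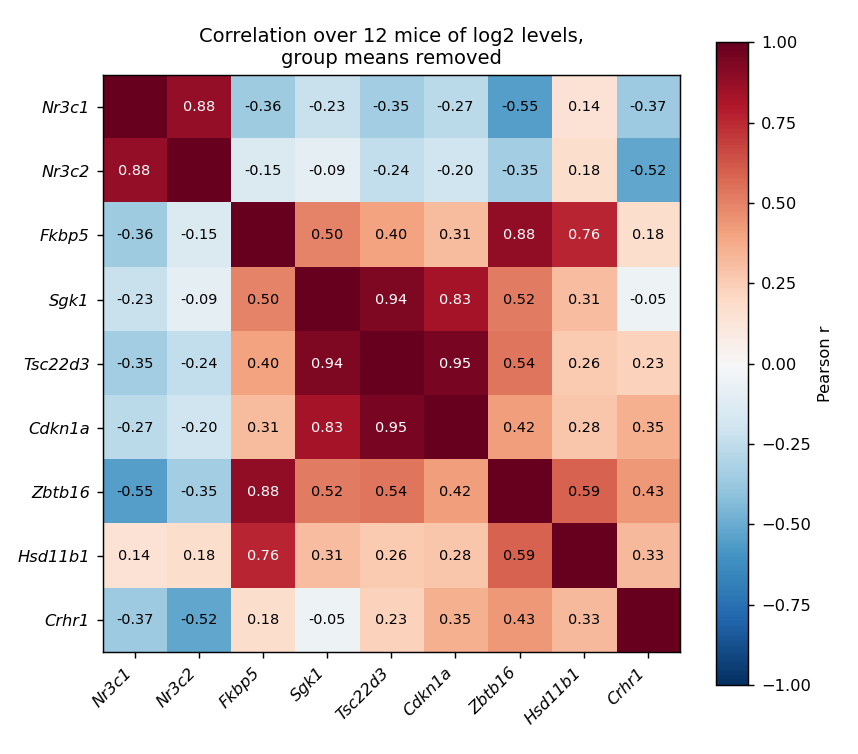
Pearson correlation of each pair of the 9 genes over 12 mice, from log2 CPM with group means removed, on a colour scale from -1 to 1. Sgk1, Tsc22d3 and Cdkn1a form one block (r of 0.83 to 0.95), Fkbp5, Zbtb16 and Hsd11b1 another (0.59 to 0.88), and Nr3c1 with Nr3c2 a pair at 0.88.

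Sgk1 and Tsc22d3 had a Pearson r of 0.937 (exact permutation p = 0.00231, adjusted p = 0.0764 over 36 pairs) and a Spearman rho of 0.916 (exact permutation p = 0.00231, adjusted p = 0.0833). The r was 0.862 in females and 0.976 in males, 0.800 without the 2 mice farthest from the median, and between 0.873 and 0.960 with any 1 mouse left out. Tsc22d3 and Cdkn1a had an r of 0.947 (exact permutation p = 0.00772, adjusted p = 0.0764) and a rho of 0.825 (exact permutation p = 0.0270, adjusted p = 0.278). The r of that pair was 0.438 in females and 0.993 in males, a difference that was not tested. Without the 2 farthest mice it was 0.758. Sgk1 and Cdkn1a had an r of 0.831 (exact permutation p = 0.0694, adjusted p = 0.357) that was 0.377 without the 2 farthest mice. It was 0.176 in females and 0.964 in males, a difference that was not tested, and 0.568 without Nell-1+/6R male 3.

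Nell-1+/6R male 3 was the lowest of all mice in Sgk1, Tsc22d3 and Cdkn1a, and Nell-1+/6R male 1 the highest in Cdkn1a. Nell-1+/6R male 3 also had the lowest sum of the 8 oligodendrocyte markers, 3196 CPM in a range up to 6988, the lowest sum of the 7 immediate early genes, 835 CPM in a range up to 1124, the lowest sum of the 5 thalamus and habenula markers, 48.5 CPM in a range up to 91.3, and the lowest sum of the 4 CA2 neuron markers, 191.5 CPM in a range up to 258. Its sums of the 8 endothelial markers, 221 CPM, and of the 6 astrocyte markers, 4551 CPM, were the highest. Other mice lay close to it in several sums. WT female 1 had 191.7 CPM for the CA2 markers and 219 CPM for the endothelial markers. WT male 3 had 844 CPM for the immediate early genes, and WT male 2 had 4458 CPM for the astrocyte markers. Nell-1+/6R female 2 had 50.4 CPM for the thalamus and habenula markers. The oligodendrocyte sum ran with Sgk1 at an r of 0.61, with Tsc22d3 at 0.65 and with Cdkn1a at 0.59. The CA2 sum ran with the same genes at 0.65, 0.60 and 0.56, the immediate early gene sum at 0.48, 0.62 and 0.55, and the endothelial sum at -0.65, -0.62 and -0.47, and their part in the result was not tested. With the oligodendrocyte sum taken out of each gene, the r of Sgk1 and Tsc22d3 was 0.898. All 8 oligodendrocyte markers were detected, and their range was 4065 to 6729 CPM in WT and 3196 to 6988 in Nell-1+/6R mice.

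**Figure D4:**
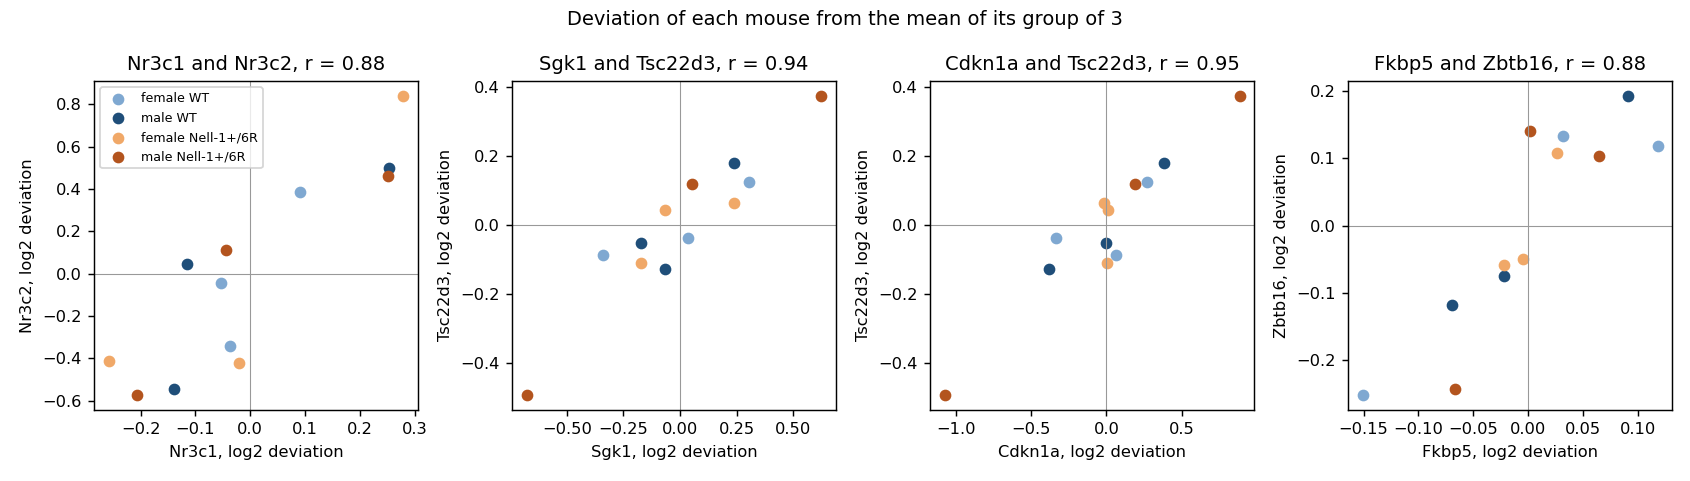
Log2 deviation of each mouse from the mean of its group for 4 pairs of genes (1 point a mouse, coloured by group). In the panels with Tsc22d3, 1 male Nell-1+/6R mouse lies alone at the lower left, and the receptor pair and the pair of Fkbp5 and Zbtb16 spread over all 4 groups.

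Fkbp5 and Zbtb16 formed the other pair of known targets, with an r of 0.883 (exact permutation p = 0.00849, adjusted p = 0.0764) and a rho of 0.867 (exact permutation p = 0.0224, adjusted p = 0.278). It was 0.915 in females and 0.886 in males, 0.887 without the 2 farthest mice, and between 0.813 and 0.935 with any 1 mouse left out. Fkbp5 and Hsd11b1 had an r of 0.759 (exact permutation p = 0.0594, adjusted p = 0.357), which was 0.548 without the 2 farthest mice. Fkbp5 and Tsc22d3 had an r of 0.401 (exact permutation p = 0.171, adjusted p = 0.532). It was 0.195 in WT and 0.902 in Nell-1+/6R mice, a difference that was not tested, and 0.665 in females and 0.424 in males. Fkbp5 and Zbtb16 ran with the sum of the 4 CA2 neuron markers at an r of 0.84 and 0.69, and both ran against the sum of the 8 endothelial markers, at -0.71 and -0.83; the part of these in the result was not tested. The CA2 sum lay between 191.7 and 258 CPM in WT and between 191.5 and 251 in Nell-1+/6R mice, the endothelial sum between 174 and 219 and between 168 and 221, and every marker of both lists was detected.

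The receptor genes, Nr3c1 and Nr3c2, deviated together over the mice, with an r of 0.882 (exact permutation p = 0.00463, adjusted p = 0.0764) and a rho of 0.811 (exact permutation p = 0.0309, adjusted p = 0.278). The r was 0.877 in females, 0.898 in males, 0.827 in WT and 0.909 in Nell-1+/6R mice, and 0.793 without the 2 farthest mice. Both also ran with a pattern that many genes shared. The largest principal component of 14386 genes held 38.6% of the variance within groups, and its r was 0.89 with Nr3c2 and 0.81 with Nr3c1 but within 0.39 of 0 for each of the other 7 genes. With the component taken out, the r of Nr3c1 and Nr3c2 was 0.605 (exact permutation p = 0.0965, adjusted p = 0.361), while that of Sgk1 and Tsc22d3 was 0.926 and that of Fkbp5 and Zbtb16 was 0.876.

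Across genes, the weight in that component rose with the length of the longest transcript (Spearman rho 0.454 over 13883 genes, which are not independent replicates) and fell with its GC content (rho -0.600). The longest transcript of Nr3c1 has 6436 bases at 42.2% GC and that of Nr3c2 has 5916 bases at 47.5% GC, against medians of 3469 bases and 50.0% GC. The sum of the 6 astrocyte markers, all detected, lay between 3455 and 4458 CPM in WT and between 3099 and 4551 in Nell-1+/6R mice, and it ran with Nr3c1 at an r of 0.89 and with Nr3c2 at 0.90. Other marker sums ran with or against the receptors too. That of dentate granule cells had an r of 0.74 with Nr3c1 and 0.76 with Nr3c2, and that of GABAergic neurons 0.59 and 0.59. That of microglia had -0.69 and -0.78, and that of oligodendrocytes -0.56 and -0.69. That of CA1 neurons had -0.53 and -0.70, and that of the hippocampal check -0.52 and -0.56. With the astrocyte sum taken out, the r of the receptors was 0.398 (exact permutation p = 0.181, adjusted p = 0.568). How far transcript length, GC content and the RNA of these cell types each take part in the spread of the receptor genes was not tested.

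The genes whose pattern over the 12 mice was most like each of the 9, as the 3 highest Pearson r among 14386 genes, differed from gene to gene. For Nr3c2 they were Ptch1 (0.990), which encodes the hedgehog receptor, Ahcyl1 (0.990) and the potassium channel gene Kcnd2 (0.988), and Nr3c2 had an r beyond 0.9 either way with 999 genes, 6.94% of all. For Nr3c1 they were Usp47 (0.975), Cog5 (0.972) and 1700086L19Rik (0.971), with 361 genes beyond 0.9. The other 7 genes had between 7 and 22 such genes each. For Tsc22d3 the nearest was Klf15 (0.953), a transcription factor gene that glucocorticoids are known to raise, followed by Cdkn1a and Sgk1 from among the 9. For Sgk1 they were Bzw2 (0.970), Tsc22d3 and Otud7b (0.926), and for Cdkn1a Tsc22d3, Zfp783 (0.947) and Map7 (0.942). For Fkbp5 they were Abr (0.955), Mef2d (0.942) and Dnmbp (0.941), and for Zbtb16 Spen (0.957), Rexo4 (0.948) and Phrf1 (0.945). For Hsd11b1 they were Trmo (0.914), 1810014B01Rik (0.910) and Trerf1 (0.903), and for Crhr1 Psmc1 (0.939), Tceal3 (0.939) and Rtl5 (0.932).

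A list of 25 other genes that glucocorticoids are known to raise, all of them tested, was set against Tsc22d3 and Fkbp5 mouse by mouse. Of the 25, 14 (56%) had an r of at least 0.5 with Tsc22d3, against 9.43% of all 14386 genes, and the median r was 0.57 against -0.0051. The highest were Klf15 (0.953), Plin4 (0.857), Slc2a1 (0.856), the clock gene Per1 (0.847), Arl4d (0.842), Arrdc2 (0.838) and Nfkbia (0.811), which encodes an inhibitor of NF-kappa-B. Dusp1, a phosphatase gene of the same list, had an r of -0.84. Without Nell-1+/6R male 3, the count with Tsc22d3 was 10 of 25, against 6.28% of genes, and the median r was 0.49. With Fkbp5, 8 of the 25 (32%) reached 0.5, against 11.8% of genes, with a median of 0.40 against 0.0087. Without Nell-1+/6R male 3 the count with Fkbp5 was 6 of 25, against 11.4% of genes, with a median r of 0.33.

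**Figure D5:**
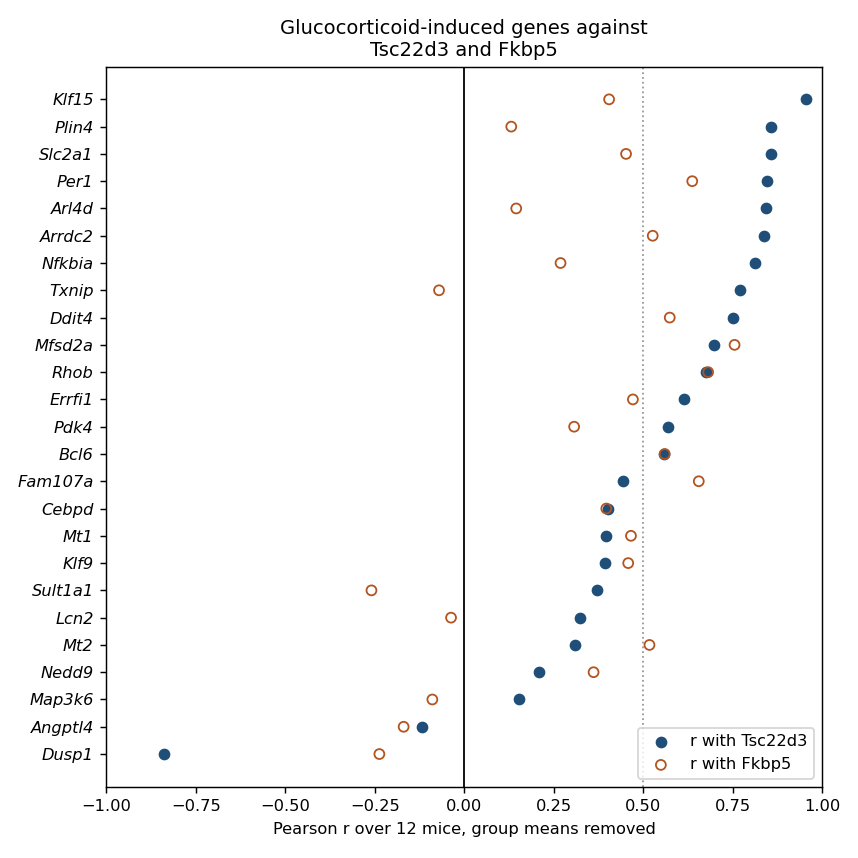
Pearson r over 12 mice, group means removed, of 25 glucocorticoid-induced genes with Tsc22d3 (filled) and with Fkbp5 (open). With Tsc22d3, 14 genes lie at or right of the dotted line at 0.5 and Dusp1 lies at -0.84, and with Fkbp5 8 genes do.

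Between genotypes, 0 of those 25 genes passed the thresholds, against 1.46% of all genes, and 1 (4%) had an unadjusted p under 0.05, close to the 3.26% of all genes. That gene was Mfsd2a, which encodes a lipid transporter of the blood-brain barrier and stood at 22.7 ± 2.65 CPM in WT and 27.3 ± 4.53 in Nell-1+/6R mice (log2 0.26, SE 0.0940; edgeR, unadjusted p = 0.0140, adjusted p = 1.00), with a log2 difference of 0.24 without the 4 mice rich in choroid plexus RNA (edgeR, unadjusted p = 0.0795). Pdk4, a kinase gene that shifts fuel use away from glucose, was next with a log2 difference of 0.30 (SE 0.141). The median of the list was -0.040 against -0.00076 over all genes. By sex 3 of the 25 had an unadjusted p under 0.05, against 4.72% of all genes, and 1 passed the thresholds, against 1.35%. It was Map3k6, with 2.39 ± 0.811 CPM in females and 3.90 ± 1.06 in males (log2 0.71, SE 0.240; edgeR, unadjusted p = 0.0107, adjusted p = 0.868).

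In the genotype by sex interaction, which was tabulated for this list after the value of Sgk1 had been seen, 21 of the 25 genes lay below 0. Their median was -0.32, against 0.0028 over all genes. Many of the 25 moved together over the same mice, so they are not independent replicates and the count of signs is only a description. An unadjusted p under 0.05 was found for 5 of the 25, against 3.09% of all genes, and 2 passed the thresholds, against 2.16%. The count past the thresholds was 0 with limma-voom and 3 with DESeq2, and with 1 mouse left out it ran from 0 (without WT male 1, WT male 2 or Nell-1+/6R male 3) to 7 (without Nell-1+/6R male 1), with 5 without WT male 3. Nfkbia at -0.64 (SE 0.284), Sult1a1 at -0.55 (SE 0.228), Ddit4 at -0.44 (SE 0.197) and Mt2 at -0.42 (SE 0.170) lay below 0, as Sgk1 did, and Dusp1 lay above it at 0.59 (SE 0.205). None passed an adjusted p under 0.05 (edgeR, adjusted p = 0.987 for each). Leaving out 1 mouse at a time gave between 1 gene (without WT male 2) and 11 genes (without Nell-1+/6R male 1) at an unadjusted p under 0.05 and medians between -0.21 and -0.42; without Nell-1+/6R male 3 it was 2 genes and -0.21.

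The other lists held the partners of the receptors. Of 12 receptor chaperones, the proteins that keep a receptor ready to bind hormone, 0 passed for genotype, against 1.46% of all genes. Their median log2 difference was 0.031, against -0.00076 over all genes. Hsp90ab1, at 1514 ± 60.8 CPM in WT and 1564 ± 78.5 in Nell-1+/6R mice, and Cdc37, with a log2 difference of 0.052 (SE 0.0603), came nearest. Of 12 coregulators, through which a bound receptor acts on transcription, 0 passed for genotype, against the same 1.46%, with a median of -0.024. Ncoa3 (log2 -0.12, SE 0.0671) and Ncoa6 (log2 -0.11, SE 0.0791) came nearest. By sex and by interaction these lists held 1 call past the thresholds, against 1.35% and 2.16% of all genes, Hspa1a with an interaction of 0.80 (SE 0.305).

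Of 12 genes of steroid metabolism and access, 9 were tested and 0 passed for genotype or sex, against 1.46% and 1.35% of all genes. Their median genotype difference was -0.14, against -0.00076 over all genes, with 1 above and 8 below 0. The lowest value of the list was that of Hsd11b2, which encodes the enzyme that inactivates corticosterone, at -0.98 (SE 0.644), on 0 to 4 counts a mouse. Abcb1a, a pump that keeps some steroids out of the brain, stood at 18.3 ± 2.48 CPM in WT and 16.1 ± 3.61 in Nell-1+/6R mice (log2 -0.18, SE 0.140). With 1 mouse left out its log2 difference lay between -0.30 and -0.11. Of 14 ligands and receptors of the corticotropin-releasing hormone and melanocortin systems, 11 were tested. For genotype 0 passed, against 1.46% of all genes, and the median was 0.10, with 7 above and 4 below 0. Avpr1b, a vasopressin receptor gene, had a log2 difference of -0.65 (SE 0.319; edgeR, unadjusted p = 0.0616, adjusted p = 1.00) on 6 to 20 counts a mouse. By sex 1 of the 11 passed, against 1.35% of all genes. It was Pomc, which encodes the precursor of corticotropin, with 1.39 ± 0.845 CPM in females and 0.708 ± 0.242 in males (log2 -0.92, SE 0.345; edgeR, unadjusted p = 0.0186, adjusted p = 0.868), on 5 to 40 counts a mouse. Without WT female 2 its log2 difference was -0.57, and without the 4 mice rich in choroid plexus RNA it was -0.36.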

How the data were processed

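The authors sequenced single 50-base reads on a HiSeq instrument and aligned them to mm10 with HISAT2 2.1.0; counts per gene came from featureCounts (2.0.1 in the submitters' processing notes), and they tested with limma-voom. They deposited raw counts of 27179 Entrez IDs for all 12 mice, with no normalization. The sources used here do not give the strand setting or the treatment of multiply placed reads; exons of Nr3c2 share 247 bases, and those of Cdkn1a 273, with a gene on the other strand. Names, positions and promoters are from RefSeq GRCm38.p6 (25275 IDs named), and exon and transcript lengths from GENCODE M21. WT samples have "Het" in their titles and WT in their genotype field, which was used.

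The 17937 genes that reached a CPM of 0.2 in 2 or more mice were tested with edgeR 4.0.16 (TMM, sex plus genotype, R 4.3.3); a model with 4 groups gave the interaction. CPM are scaled by TMM, log2 CPM have a prior count of 2, intervals cover 95%. Correlations used Python 3.11.15 with scipy 1.17.1 and exact permutations within groups, and those on other genes are descriptions over 12 mice with no test. The replicate numbers are not stated to be separate litters, so p-values measure the spread between these mice. Alternatives were DESeq2 1.42.0, its size factors, limma-voom (limma 3.58.1), other filters, a replicate block and each mouse left out; the choroid-poor subset, the removal of a component or marker sum, and the search for 1 arm of the palindrome were added after the data were seen. The scripts were tested on simulated data. Besides the 9 genes, those named are the 2 with the smallest genotype p in each list, the list genes past the thresholds, the 3 most alike for each of the 9, and, chosen after their values were seen, the list genes with the highest r or an interaction. The 9 genes and the lists were chosen with earlier results of these data known.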

Additional observations from a re-analysis of the deposited data

Results flagged for a closer look

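In 20 groups of 6 mice (each genotype for each of the 9 genes and for the ratio of Nr3c2 to Nr3c1) the highest and lowest mouse were compared with the rest, and 1 stood apart by Dixon's criterion, where chance gives about 1 in 20. It was Nr3c1 in WT mice, where WT male 2 stood at 76.7 CPM and the other 5 between 58.4 and 64.5.

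For Sgk1 the fitted genotype difference had opposite signs in females and males, with an interaction of -0.83 on the log2 scale (edgeR, unadjusted p = 0.0408, adjusted p = 0.987). It did not pass after adjustment, and with 1 mouse left out it lay between -1.19 and -0.56. Without the 4 mice rich in choroid plexus RNA it was -0.69 (edgeR, unadjusted p = 0.218).

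For Fkbp5 each of the 3 Nell-1+/6R females (75.1 to 77.6 CPM) lay above the WT female mean of 72.3 CPM, and each of the 3 Nell-1+/6R males (76.4 to 83.7 CPM) lay below the WT male mean of 86.4 CPM. The interaction was -0.18 on the log2 scale (edgeR, unadjusted p = 0.135, adjusted p = 0.987).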

How the results depend on the processing

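The counts of the 9 genes called at an adjusted p stayed at 0 for genotype under every alternative run and with any mouse left out. For sex and for the interaction they stayed at 0 under those run for them, which leave out the replicate block and limma-voom with genotype alone, and so did the count of correlated pairs under its own alternatives. Among the list genes, the count for genotype went from 0 to 1 (Avpr1b) with the replicate block and lay between 0 and 1 with a mouse left out. The count by sex went from 2 to 1 both where 6 or more mice had to reach a CPM of 1 and without the 4 mice rich in choroid plexus RNA, and lay between 1 and 4 with a mouse left out. Values near 0 changed sign, none of them past a test. The genotype difference of Nr3c2 was -0.033 with limma-voom with sex, -0.032 with limma-voom with genotype alone, -0.031 with the replicate block and -0.018 without the choroid-rich mice. That of Tsc22d3 was -0.016, -0.0057 and -0.015 under the first 3 of these and -0.10 under the last, where that of Cdkn1a was -0.024. With a mouse left out, it lay between -0.12 and 0.0023 for Nr3c1, -0.21 and 0.12 for Nr3c2, -0.059 and 0.011 for Fkbp5, -0.18 and 0.10 for Sgk1, -0.059 and 0.12 for Tsc22d3 and -0.088 and 0.29 for Cdkn1a, and the log2 ratio of Nr3c2 to Nr3c1 differed by -0.063 to 0.13. The cause was not tested. Deviations of mice that share a sex and a replicate number had r between -0.54 and 0.52. These values cannot settle whether the numbers pair mice. With the replicate block, 0 of the 9 genes were called. Counting error weighs most on Cdkn1a, with as few as 56 counts in a mouse, and on Hsd11b2, Avpr1b and Pomc in the lists.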
